A study of Mus musculus with 10 samples.

Results

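The genes described here encode the proteins of the mitochondrial ribosome. They were taken from the expression table of 4T1 tumors as the genes whose name starts with Mrpl (large subunit) or Mrps (small subunit), which gave 78 of 21959 genes, 49 named Mrpl and 29 named Mrps. 4T1 is a mouse mammary carcinoma line that stands in for triple-negative tumors of the breast. Its cells had been injected under the skin of the abdomen of female BALB/c mice that were obtained at a few weeks of age. The mice of the exercise group (E) ran in wheels at will for 21 days, those of the non-exercise group (NE) were housed without any intervention, and each group gave 5 tumors, taken on day 21 for mRNA sequencing, with 1 library per tumor. All 10 mice shared the strain, the sex and the injected line, and no tumor from a mouse without 4T1 cells was part of the comparison. The total count on genes was 20646763, 18645694, 20611941, 18548988 and 15045613 in E1 to E5 and 23092251, 18706032, 22723771, 22947178 and 21388798 in NE1 to NE5. The comparison of E with NE asks whether voluntary running is accompanied by another level of these transcripts in the tumor.

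The mitochondrial ribosome stands in the inner compartment of mitochondria and translates the few messages that mitochondrial DNA encodes, all of them for subunits of the respiratory chain and of ATP synthase. Its ribosomal RNAs are transcribed inside the organelle, while all of its proteins are encoded in the nucleus, made in the cytosol and imported. Some of these proteins descend from those of bacterial ribosomes, others were gained by mitochondria, and carcinoma cells that respire need both kinds to renew their respiratory chain.

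By their place in the mammalian structure, 51 of the 78 genes encode proteins of the large subunit and 26 encode proteins of the small subunit. Despite their names, Mrps18a and Mrps30 belong to the large subunit, and Mrps36 encodes a subunit of the ketoglutarate dehydrogenase complex that is not part of the ribosome. By systematic name, 46 members encode homologs of bacterial ribosomal proteins and 31 encode proteins classed as specific to mitochondria. A filter on low counts left 77 members for testing, with 40 to 1937 counts in any tumor, and removed 1, Mrpl53.

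On the FPKM scale, which divides the count by exon length and total count, the mean over the 10 tumors ran from 2.01 to 63.0 among the 77 members, a 31.4-fold range. Their median of 12.4 FPKM lay above the median of 6.40 FPKM over all 13517 genes tested, and 55 of the 77 lay within 2-fold of their own median. The median level was 12.6 FPKM for the 50 tested genes of the large subunit and 8.37 FPKM for the 26 of the small subunit, with ranges of 2.01 to 42.9 and 2.98 to 63.0. Homologs of bacterial proteins had a median of 12.4 FPKM and the proteins specific to mitochondria one of 9.58 FPKM. The ranges of both pairs of groups overlapped for most of their length.

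Mrps21, a small protein of the small subunit, had the highest level, with 72.4, 65.0, 59.4, 59.2 and 60.7 FPKM in E1 to E5 and 63.9, 58.8, 60.3, 70.2 and 60.0 FPKM in NE1 to NE5. E1 and NE4 were the high tumors of their groups, and the groups overlapped. Mrpl2, a conserved protein beside the peptidyl transferase center, followed with a mean of 42.6 ± 1.82 FPKM in E and 43.2 ± 4.76 in NE (± SD over 5 tumors). Then came Mrps23, specific to mitochondria, with a mean of 40.6 ± 2.94 FPKM in E and 40.0 ± 2.36 in NE (± SD over 5 tumors), the stalk protein Mrpl12 with 31.2 ± 3.29 and 30.5 ± 3.59 FPKM, and Mrpl22, which lines the exit tunnel of the nascent chain, with 29.8 ± 2.58 and 30.7 ± 3.01 FPKM. None of these 5 differed between the groups by more than the spread of the tumors.

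At the other end, Mrpl33 had 2.06 ± 0.154 FPKM in E and 1.96 ± 0.207 in NE (± SD over 5 tumors), and Mrps18c had 2.98 ± 0.505 and 2.98 ± 0.491 FPKM. Mrpl48 of the central protuberance, Mrps25 and Mrps35 had means over all tumors of 3.42, 3.44 and 3.48 FPKM. The length that enters these values is the union of all annotated exons, and its median was 4651 bases for the 10 lowest members and 1432 bases for the 10 highest. How far long exons lower the FPKM of single members was not tested.

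Mrpl53 was listed at 0 in all 10 tumors, which for the total counts of these libraries allows up to 0.130 to 0.199 CPM, the unit of counts scaled to a common total. In the mouse annotation (GRCm38, GENCODE M21) it lies at chr6:83109040-83109939, forward strand, and 88.0% of its exon bases also belong to Gm42688, a protein-coding gene model on the same strand. Gm42688 itself held 4 to 13 counts per tumor. How reads on the shared exons were assigned is not given in the sources used here, and Mrpl53 is therefore described only as listed at 0.

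**Figure D1:**
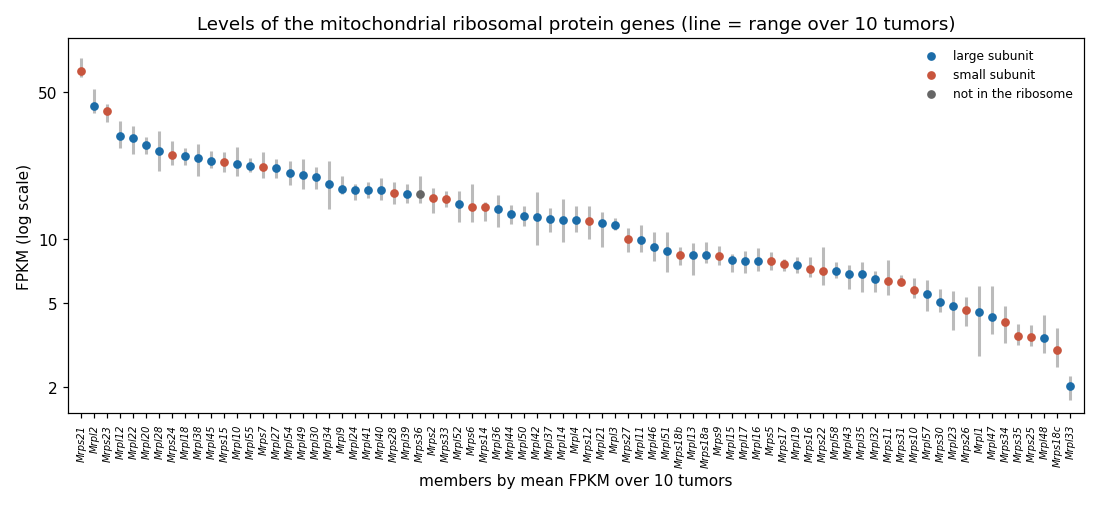
Mean FPKM of the 77 tested members over the 10 tumors on a log axis (points, colored by the subunit that holds the protein) with the range from the lowest to the highest tumor (grey lines). Mean levels run from 63.0 FPKM for Mrps21 to 2.01 FPKM for Mrpl33, and the order of most neighbours is within their range over tumors.

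Between E and NE, no member passed the thresholds for a call (2-fold or more, FDR ≤ 0.05) in edgeR's quasi-likelihood test, and 0 of all 13517 genes (0%) passed them either. At an unadjusted p of at most 0.05, 5 of the 77 members (6.49%) were lower in E, against 2.29% of all genes tested (310 genes), and 0 members were higher in E, against 2.57% of all genes (347 genes). At an unadjusted p of at most 0.01, 0 members were lower in E and 0 higher, against 0.259% and 0.37% of all genes. The smallest adjusted p of a member was 0.897, the value that all genes with the smallest p shared. DESeq2 found 2 genes at an FDR of at most 0.05, neither of them 2-fold nor a member, and counted 5 members lower and 0 higher at an unadjusted p of at most 0.05, beside 2.38% and 2.46% of all genes. Limma-voom with sample weights counted 9 lower and 0 higher, beside 8.21% and 5.10% of all genes, and edgeR's exact test 0 and 0, beside 1.07% and 1.53%.

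The median log2 fold change of the members was -0.06, beside -0.01 over all genes tested, and single members ran from -0.36 to 0.09. An absolute log2 fold change of at most 0.2 was found for 72 of the 77. With TMM, 60 members lay below 0 (of all genes 54.0%), without TMM 46 did (of all genes 45.0%), and with a model term for the log2 total count 38 did (of all genes 55.6%). Without TMM the split of all genes at an unadjusted p of at most 0.05 moved from 347 higher and 310 lower to 472 higher and 160 lower, and the members counted 0 higher and 3 lower. With that term, no member had an unadjusted p of at most 0.05, beside 0.429% of all genes lower and 0.473% higher, and the median of the members was 0.00042. The total count moved with the groups, with medians of 18645694 in E and 22723771 in NE, and its part in the difference was not tested further.

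The large subunit held 39 of 50 estimates below 0, with a median log2 fold change of -0.07, and the small subunit 20 of 26, with a median of -0.03. Without TMM the counts were 32 of 50 and 13 of 26, and with the term for the log2 total count 27 of 50 and 10 of 26, with a median of 0.02 for the small subunit. Of the homologs of bacterial proteins, 41 of 46 lay below 0 (median -0.06), and of the proteins specific to mitochondria 18 of 30 did (median -0.02). Without TMM the counts were 31 of 46 and 14 of 30, and the median of the second group was 0.01. With the term for the log2 total count they were 21 of 46 (median 0.0017) and 16 of 30 (median -0.01), so the order of the classes turned.

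Single tumors also moved these medians. Without NE1 the small subunit held 13 of 26 estimates below 0, with a median log2 fold change of -0.0027, while the large subunit held 35 of 50, with a median of -0.05. Without NE4 the large subunit had a median of -0.03 (33 of 50) and the small subunit one of -0.02 (17 of 26), and the median of the small subunit was -0.06 without E1, -0.05 without NE5 and -0.01 without E5. The homologs of bacterial proteins had a median of -0.03 without NE4 (34 of 46), and the proteins specific to mitochondria had -0.05 without E1 (21 of 30) and -0.05 without NE5 (20 of 30). No median of these 4 groups lay above 0 with a tumor left out.

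**Figure D2:**
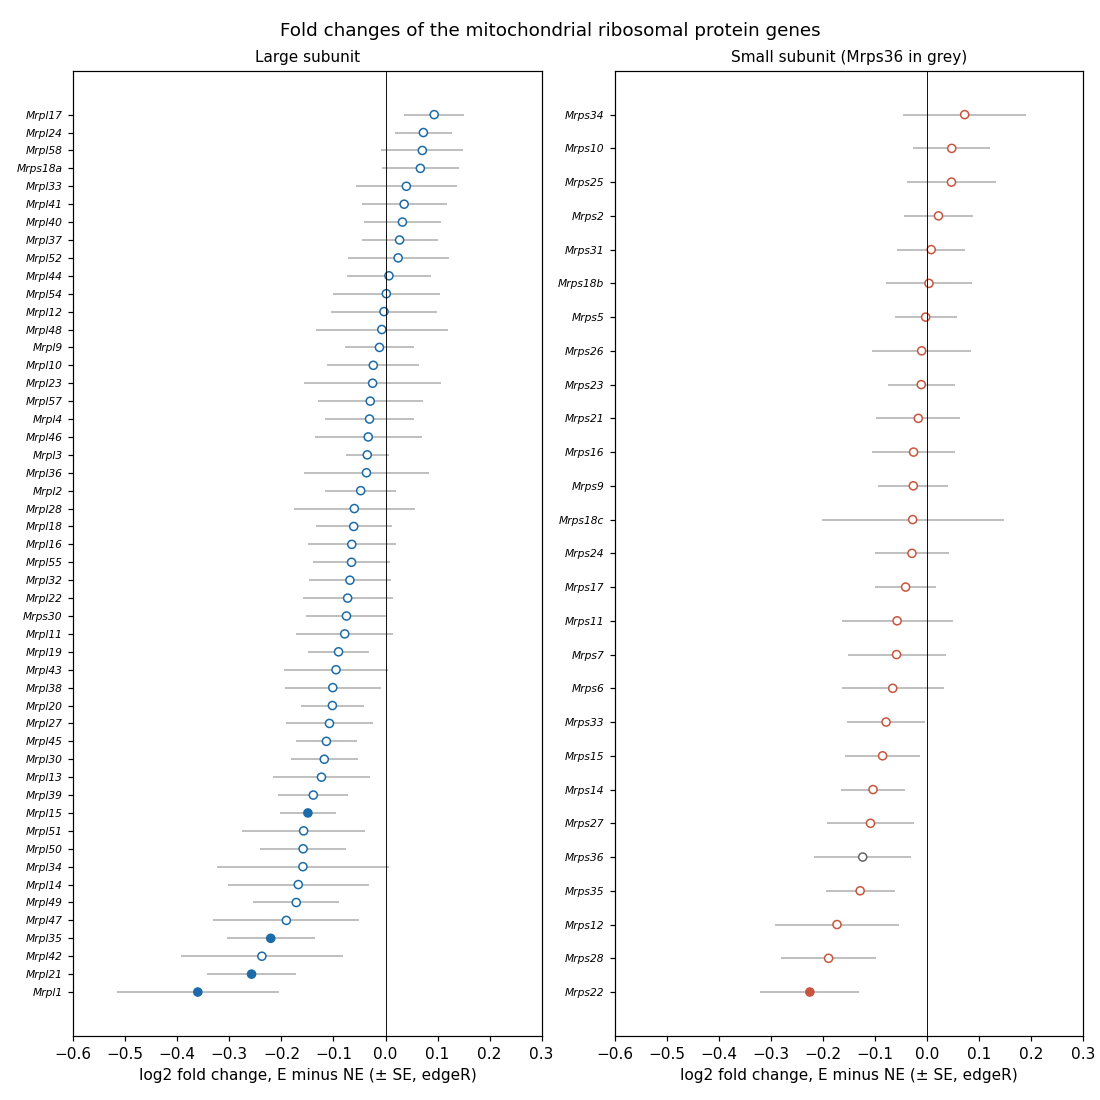
Log2 fold change of each tested member between the exercise and non-exercise tumors (E minus NE, edgeR after TMM, 5 tumors each) with its standard error (grey lines), for the large subunit on the left and the small subunit with Mrps36 on the right. Filled points have an unadjusted p of at most 0.05, which holds for 5 members, all below 0, and no member passed the adjusted threshold.

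Mrpl21, a conserved protein of the large subunit (ENSMUSG00000024829, chr19:3282901-3292837, forward strand, GRCm38), had the smallest p of the members. Its level was 11.6, 11.0, 11.0, 12.0 and 9.22 FPKM in E1 to E5 and 13.5, 11.9, 12.4, 13.3 and 12.9 FPKM in NE1 to NE5. E5 was the lowest tumor, and on the FPKM scale E4 lay just above NE2. After TMM, Mrpl21 was the only member whose groups did not overlap, with E below NE, which held for 0.289% of all genes tested, while no member had E above NE (0.436% of all genes). The log2 fold change was -0.26 ± 0.09 (SE), with an unadjusted p of 0.0123, an adjusted p of 0.897 (edgeR) and rank 112 among all genes. The exact two-sided permutation test gave p = 0.00794, the smallest that 5 against 5 tumors allow, for 1 of 77 members.

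Mrpl15 sits in the core of the large subunit (ENSMUSG00000033845, chr1:4773206-4785739, reverse strand, GRCm38). It had 8.33, 7.85, 7.61, 7.56 and 6.99 FPKM in E1 to E5 and 8.32, 8.32, 8.51, 8.36 and 8.07 FPKM in NE1 to NE5. The NE tumors were tightly grouped, 4 E tumors lay below all of them, and E1 lay among them. The log2 fold change was -0.15 ± 0.05 (SE, edgeR, adjusted p = 0.897, exact permutation test p = 0.0238).

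Mrpl35 (ENSMUSG00000052962, chr6:71812997-71826969, reverse strand, GRCm38), another homolog of a bacterial protein, had 6.31, 5.62, 6.77, 7.16 and 6.15 FPKM in E1 to E5 and 6.90, 6.88, 7.80, 7.56 and 7.33 FPKM in NE1 to NE5. Only E4 reached into the range of NE. The log2 fold change was -0.22 ± 0.08 (SE, edgeR, adjusted p = 0.897, exact permutation test p = 0.0397).

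Mrpl1 forms the mobile stalk beside the exit of tRNAs (ENSMUSG00000029486, chr5:96209493-96266727, forward strand, GRCm38). Its level was 2.79, 3.93, 5.00, 4.33 and 3.95 FPKM in E1 to E5 and 4.23, 5.33, 5.97, 4.76 and 4.85 FPKM in NE1 to NE5. E1 was far below the other tumors, and E3 and E4 overlapped with NE. The log2 fold change of -0.36 ± 0.16 was the largest in size among the members (SE, edgeR, adjusted p = 0.897, exact permutation test p = 0.0556), as was its SD of 0.303 over the 10 tumors on the log2(CPM + 1) scale.

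In the small subunit, Mrps22 (ENSMUSG00000032459, chr9:98588730-98601660, reverse strand, GRCm38), which is specific to mitochondria, had 6.60, 6.71, 7.04, 6.04 and 6.71 FPKM in E1 to E5 and 7.16, 7.06, 9.14, 7.86 and 6.63 FPKM in NE1 to NE5. NE3 was the highest tumor and NE5 lay inside the range of E. The log2 fold change was -0.23 ± 0.10 (SE, edgeR, adjusted p = 0.897, exact permutation test p = 0.0317).

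The next 5 members by p had unadjusted values of 0.0646 to 0.0786. Mrpl39 had a mean of 15.9 ± 0.734 FPKM in E and 17.1 ± 1.17 in NE, and Mrpl49 had 19.3 ± 1.29 and 21.2 ± 2.43 FPKM (± SD over 5 tumors), both specific to mitochondria. Mrps28 of the small subunit had means of 15.6 and 17.4 FPKM. Mrpl45, which ties the large subunit to the inner membrane at the exit of the tunnel, had 22.7 ± 0.910 and 24.0 ± 1.54 FPKM, and Mrps35 had 3.36 ± 0.198 and 3.60 ± 0.216 FPKM. Their log2 fold changes were -0.14, -0.17, -0.19, -0.11 and -0.13, and in each of them the groups overlapped. Exact permutation tests gave p = 0.0556, 0.103, 0.0317, 0.0556 and 0.0397 in this order. An exact permutation p of at most 0.05 was found for 7 members that were lower in E and 0 that were higher, beside 2.57% and 2.94% of all genes tested. Beside Mrpl21, Mrpl15, Mrpl35 and Mrps22 these were Mrps28, Mrps35 and Mrps14, a homolog of a bacterial protein with 13.8 ± 0.932 and 14.5 ± 0.472 FPKM (log2 fold change -0.10 ± 0.06 SE, exact permutation p = 0.0317, edgeR p = 0.120).

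**Figure D3:**
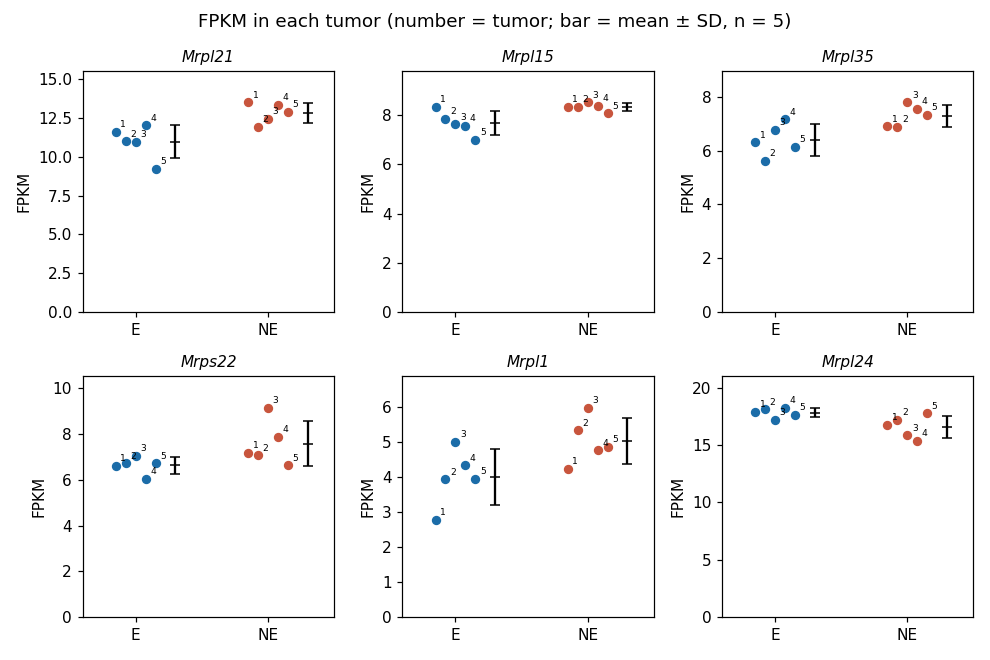
FPKM in each tumor of the 5 members with an unadjusted p of at most 0.05 and of Mrpl24, for E (blue) and NE (red), with the tumor number beside each point and the mean ± SD of 5 tumors at the right of each group. On this scale every panel shows overlapping groups, with the least overlap for Mrpl21, where E4 (12.0) passes NE2 (11.9).

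The stalk of the large subunit recruits translation factors. Its protein Mrpl12 had 36.1, 31.6, 26.9, 30.0 and 31.1 FPKM in E1 to E5 and 29.3, 28.1, 31.3, 36.3 and 27.3 FPKM in NE1 to NE5, so that the high tumors were E1 and NE4. The anchors of the stalk, Mrpl10 and Mrpl11, had 22.8 ± 2.21 and 9.81 ± 0.898 FPKM in E and 22.7 ± 2.76 and 10.1 ± 1.01 FPKM in NE (± SD over 5 tumors). Log2 fold changes were -0.0030, -0.02 and -0.08 for Mrpl12, Mrpl10 and Mrpl11, all smaller than their standard errors of 0.10, 0.09 and 0.09.

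Around the peptidyl transferase center and the tunnel, Mrpl3 varied least of all members, with an SD of 0.0447 over the 10 tumors on the log2(CPM + 1) scale. It had 12.0, 11.5, 11.5, 11.5 and 11.8 FPKM in E1 to E5 and 12.6, 11.0, 11.8, 11.4 and 11.6 FPKM in NE1 to NE5. All E tumors lay inside the range of NE, which was the wider of both. Mrpl24, near the tunnel exit, had a mean of 17.8 ± 0.424 FPKM in E and 16.6 ± 0.983 in NE (log2 fold change 0.07 ± 0.05 SE, exact permutation test p = 0.0952, n = 5 each), and 2 NE tumors, NE2 and NE5, lay inside the range of E. Mrpl23, also at the exit, had 4.86 ± 0.535 and 4.83 ± 0.770 FPKM. Mrpl44, which carries a fold of the ribonuclease III family, had 13.4 ± 0.599 and 13.0 ± 1.22 FPKM, and Mrpl58, a peptidyl-tRNA hydrolase that was built into the large subunit, had 7.32 ± 0.633 and 6.82 ± 0.171 FPKM. Mrps30, a protein of the large subunit, had 4.96 ± 0.265 and 5.11 ± 0.546 FPKM, with a log2 fold change of -0.08 ± 0.08 (SE).

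In the small subunit, Mrps12 lies at the decoding site, where codon and anticodon are matched. It had 13.8, 11.4, 10.3, 10.1 and 12.3 FPKM in E1 to E5 and 12.6, 13.4, 12.3, 14.4 and 11.0 FPKM in NE1 to NE5. E3 and E4 were the lowest tumors and NE4 the highest, with overlap between the groups (log2 fold change -0.17 ± 0.12 SE, exact permutation test p = 0.151, n = 5 each). Mrps7, which binds the ribosomal RNA of the head, had 21.8 ± 1.75 and 22.2 ± 2.61 FPKM in E and NE, and Mrps27, a pentatricopeptide repeat protein, had 9.72 ± 0.974 and 10.3 ± 0.668 FPKM. Mrps31 was among the 3 members of smallest spread, with 6.04 to 6.79 FPKM in E and 6.08 to 6.42 FPKM in NE.

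Mrps18a, Mrps18b and Mrps18c are named after the bacterial protein S18 and sit at different places. By systematic name only Mrps18c is its homolog, and the other 2 were counted above as specific to mitochondria. Mrps18a of the large subunit had a mean of 8.67 ± 0.678 FPKM in E and 8.09 ± 0.408 in NE, and Mrps18b of the small subunit had 8.55 ± 0.608 and 8.34 ± 0.562 FPKM (± SD over 5 tumors). Mrps18c, which takes the place of the bacterial protein, was lower, at 2.84, 3.09, 3.79, 2.71 and 2.47 FPKM in E1 to E5 and 3.42, 3.08, 3.48, 2.47 and 2.48 FPKM in NE1 to NE5. In each of the 10 tumors Mrps18c lay below both others on the FPKM scale. Log2 fold changes were 0.07 ± 0.07, 0.0031 ± 0.08 and -0.03 ± 0.18 (SE) for Mrps18a, Mrps18b and Mrps18c, so no difference between the groups exceeded the error.

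Beside Mrpl1, the largest spread over the tumors was found for Mrpl42 and Mrpl34. Mrpl34 had 22.4, 20.1, 13.9, 14.3 and 16.8 FPKM in E1 to E5 and 20.0, 18.5, 17.3, 23.5 and 16.0 FPKM in NE1 to NE5. Mrpl42, which is specific to mitochondria, had 10.2, 11.7, 12.8, 12.6 and 12.0 FPKM in E1 to E5 and 9.40, 14.7, 15.5, 16.7 and 11.9 FPKM in NE1 to NE5. The lowest and the highest tumor of Mrpl42, NE1 and NE4, were both in NE (log2 fold change -0.24 ± 0.16 SE, exact permutation test p = 0.270, n = 5 each). Mrps36, the dehydrogenase subunit outside the ribosome, had 15.9 ± 0.750 FPKM in E and 16.9 ± 1.88 in NE, with 20.0 FPKM in NE4 as its highest tumor.

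Summed over all 78 members, the share of the total count was 0.264%, 0.248%, 0.245%, 0.251% and 0.240% in E1 to E5 and 0.264%, 0.249%, 0.256%, 0.260% and 0.246% in NE1 to NE5. The lowest share, in E5, had a 95% Wilson interval of 0.238% to 0.243%, and the highest, in NE1, one of 0.262% to 0.266%, which cover counting error only. The mean was 0.250 ± 0.00888% in E and 0.255 ± 0.00747% in NE (± SD over 5 tumors), so that the E mean was 97.9% of the NE mean and the groups overlapped. No test was made on this sum.

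After TMM, the tumors differed in how many members stood high. In NE4, 58 of the 77 members lay above their own mean over the 10 tumors and 28 had their highest value, and in E1 54 lay above. In E5, 63 lay below their own mean. The lowest value of a member fell most often in E3 (18 members) and E5 (17 members).

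The share of skeletal muscle markers was highest in NE4. The 13 genes of that list took 0.134%, 0.402%, 0.0328%, 0.0571% and 0.0518% of the counts in E1 to E5 and 0.00125%, 0.0938%, 0.167%, 2.48% and 0.0148% in NE1 to NE5, with Acta1, the skeletal muscle actin, as the most abundant gene on the FPKM scale (1.07 to 4023 FPKM). Tnnc2 was at 0 in 7 tumors, and Myh2 and Myh4 in 1. Of the 12 muscle genes tested, 0 had an unadjusted p of at most 0.05, and the smallest edgeR p were those of Ttn (log2 fold change -2.13, exact permutation p = 0.913) and Mylpf (log2 fold change -2.32 ± 1.45 SE, exact permutation p = 1). NE4 held 9.79 FPKM of Ttn and 1721 FPKM of Mylpf, and without it the log2 fold changes were 0.58 and 0.79, and all 12 muscle genes lay above 0 instead of below. Without NE4 the median log2 fold change of the members was -0.03 and 3 members were lower in E at an unadjusted p of at most 0.05 (of all genes 2.26%), and with the muscle score as a covariate the values were -0.05 and 5 (of all genes 3.20%). In bulk tumors, fewer cells of a type and less RNA per cell cannot be told apart.

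E5 had the highest share of fibroblast markers. The 7 genes of that list took 0.312%, 0.411%, 0.218%, 0.511% and 1.58% of the counts in E1 to E5 and 0.101%, 0.219%, 0.240%, 0.473% and 0.412% in NE1 to NE5, none was at 0 in any tumor, and the most abundant was Col3a1 (75.4 to 728 FPKM). Of these 7, 0 had an unadjusted p of at most 0.05, and the smallest edgeR p were those of Col3a1 (log2 fold change 0.88 ± 0.47 SE, exact permutation p = 0.190) and Col1a1 (log2 fold change 1.31 ± 0.72 SE, exact permutation p = 0.246). Without E5 these log2 fold changes were 0.28 and 0.39, and 3 of the 7 genes lay below 0, against 0 with all tumors. Without E5, 2 members were lower in E at an unadjusted p of at most 0.05 (of all genes 1.22%) and the median was -0.04. The part of fibroblasts in the members' levels was not tested.

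The 12 leukocyte markers took 0.0849%, 0.0733%, 0.0614%, 0.0725% and 0.119% of the counts in E1 to E5 and 0.0317%, 0.0737%, 0.0891%, 0.0949% and 0.0773% in NE1 to NE5, with Cd68, a macrophage gene, as the most abundant (65.5 to 179 FPKM), and none was at 0 in any tumor. At an unadjusted p of at most 0.05, 2 of the 11 tested were higher in E, the neutrophil genes S100a8 (log2 fold change 2.77 ± 1.22 SE, exact permutation p = 0.603) and S100a9 (log2 fold change 2.96 ± 1.27 SE, exact permutation p = 0.476). E5 alone held 101 FPKM of S100a8 and 189 FPKM of S100a9, and without it their log2 fold changes were -0.30 and -0.15. Of the 11 tested leukocyte genes, 5 lay below 0 with all tumors (median log2 fold change 0.07). Without E5 7 did (median -0.18), and without NE4 2 did (median 0.20). The 5 endothelial markers took 0.0120%, 0.0128%, 0.0121%, 0.0139% and 0.0215% of the counts in E1 to E5 and 0.0136%, 0.0109%, 0.0106%, 0.0183% and 0.0138% in NE1 to NE5, with Pecam1 as the most abundant and none at 0. The smallest edgeR p of the list were those of Vwf (log2 fold change 0.29 ± 0.39 SE, exact permutation p = 0.444) and Tek (log2 fold change -0.24 ± 0.49 SE, exact permutation p = 0.778), with log2 fold changes of -0.05 for Vwf without E5 and 0.40 for Tek without NE4. The 5 adipocyte markers took 0.00108%, 0.00294%, 0.00192%, 0.00188% and 0.00199% of the counts in E1 to E5 and 0.000857%, 0.00146%, 0.00195%, 0.00799% and 0.00183% in NE1 to NE5. Fabp4 was the most abundant, Lep was at 0 in 5 tumors, Plin1 and Cidec in 2 and Adipoq in 1. The smallest edgeR p of this list were those of Cidec (log2 fold change -1.58 ± 1.19 SE, exact permutation p = 0.492) and Plin1 (log2 fold change -1.38, exact permutation p = 0.611), and without NE4 the log2 fold changes were 0.11 and 0.35.

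The labels call the samples mammary cancer tissue, and most epithelial markers in them were low. Of 8 genes, 5 failed the filter on low counts, among them Krt8 (at most 0.618 FPKM, at 0 in 1 tumor) and Krt18 (at most 1.46 FPKM), while Krt5 was at 0 in 8 tumors and Krt14 in 4. In NE5, however, Krt5 and Krt14, keratins of basal cells, reached 13.0 and 30.3 FPKM. The most abundant by its mean over the 10 tumors was Krt19, with 6.23 ± 1.57 FPKM in E and 9.60 ± 2.08 in NE (log2 fold change -0.65 ± 0.20 SE, exact permutation p = 0.0238). Epcam, an adhesion protein of epithelia, had 0.391 ± 0.110 and 0.769 ± 0.416 FPKM (log2 fold change -1.01 ± 0.39 SE, exact permutation p = 0.0476). Cdh1, the cadherin of epithelia and the third marker tested, had 2.60 ± 0.906 FPKM in E and 2.28 ± 1.24 in NE (log2 fold change 0.16 ± 0.35 SE, exact permutation p = 0.563), and its log2 fold change was 0.56 without NE5 and -0.01 without E5. At an unadjusted p of at most 0.05, 2 of the 3 tested, Krt19 and Epcam, were lower in E and 0 higher, beside 2.29% and 2.57% of all genes. The whole list took 0.00276%, 0.00202%, 0.00267%, 0.00238% and 0.00295% of the counts in E1 to E5 and 0.00263%, 0.00251%, 0.00309%, 0.00305% and 0.0129% in NE1 to NE5, so that NE5 held the highest share.

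Pairs of members had lower median correlations across the tumors than pairs of the 2 other families compared. Over the 2926 pairs of members, the median Pearson's r of log2(CPM + 1) across the 10 tumors was 0.192 and the median Spearman's rho 0.176, against -0.0036 and -0.0061 over all pairs of genes tested. For the 84 tested genes of the cytosolic ribosome the medians were 0.752 and 0.661. For 84 tested nuclear genes of oxidative phosphorylation they were 0.757 and 0.370, and without NE4 0.197 and 0.150, while the members had 0.139 and 0.133 without it. These are descriptions, since pairs share the same 10 tumors and the families differ in depth, and no test of the difference was made. Mrpl15 was most like the mean of the other members (r = 0.858, rho = 0.855, 10 tumors) and Mrpl24 least (r = -0.621, rho = -0.479).

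The 5 ribosomal proteins whose genes have other names had a median log2 fold change of -0.08, with 0 of 5 at an unadjusted p of at most 0.05. Ptcd3, a pentatricopeptide repeat protein of the small subunit, had 11.5 ± 1.21 FPKM in E and 12.8 ± 1.34 in NE (± SD over 5 tumors), the smallest edgeR p of the list (log2 fold change -0.19 ± 0.09 SE, exact permutation p = 0.0794). Chchd1, also of the small subunit, followed (log2 fold change -0.08 ± 0.09 SE, exact permutation p = 0.492). Without NE4 the log2 fold change of Chchd1 was -0.00029. Of 27 assembly factors, 26 were tested, with a median of -0.04 and 1 lower and 0 higher in E at an unadjusted p of at most 0.05. That gene was Rpusd4, a pseudouridine synthase, with 8.14 ± 0.323 and 9.14 ± 0.871 FPKM (log2 fold change -0.20 ± 0.07 SE, exact permutation p = 0.0238), and Noa1, a GTPase, followed (log2 fold change -0.20 ± 0.10 SE, exact permutation p = 0.0873).

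Of the 16 mitochondrial translation factors 15 were tested, with a median of -0.10 and none at an unadjusted p of at most 0.05 in either direction. The smallest edgeR p were those of the release factor Mtrf1l (log2 fold change -0.30 ± 0.16 SE, exact permutation p = 0.0794) and the recycling factor Mrrf (log2 fold change -0.16 ± 0.09 SE, exact permutation p = 0.0952). Without E5 the log2 fold change of Mtrf1l was -0.19. Of the 20 genes that charge mitochondrial tRNAs, 1 was lower and 0 higher (median -0.07), namely Mars2, the methionyl-tRNA synthetase, with 1.89 ± 0.304 FPKM in E and 2.21 ± 0.105 in NE (log2 fold change -0.26 ± 0.11 SE, exact permutation p = 0.0476), and Iars2 followed (log2 fold change -0.12 ± 0.06 SE, exact permutation p = 0.119). Of 16 genes for the replication, transcription and processing of mitochondrial DNA and RNA, 15 were tested and 1 was lower (median -0.14). It was Lrpprc, which keeps mitochondrial messages stable, with 10.6 ± 0.472 and 11.5 ± 0.696 FPKM (log2 fold change -0.15 ± 0.06 SE, exact permutation p = 0.0556), before the helicase Twnk (log2 fold change -0.22 ± 0.10 SE, exact permutation p = 0.0556). For the messages the ribosome translates, 12 of the 13 were tested, with a median of -0.23, 0 at an unadjusted p of at most 0.05 and the smallest edgeR p for mt-Atp6 (log2 fold change -0.36 ± 0.22 SE, exact permutation p = 0.198) and mt-Co1 (log2 fold change -0.29 ± 0.19 SE, exact permutation p = 0.198). The summed share of these messages was 1.31%, 1.88%, 2.10%, 1.96% and 1.49% of the counts in E1 to E5 and 1.33%, 2.01%, 2.07%, 2.83% and 1.93% in NE1 to NE5. NE4 was the highest, E1 and E5 were the low tumors of E, and NE1 was that of NE. Without NE4 the median log2 fold change of the messages was -0.04, with 7 of 12 below 0 (12 with all tumors), and mt-Atp6 and mt-Co1 were at -0.27 and -0.13. The median was -0.11 without E1 (9 of 12 below 0) and -0.35 without NE1 (12 of 12).

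Among 9 regulators of nuclear genes for mitochondria, 8 were tested, with a median of -0.09 and 0 at an unadjusted p of at most 0.05. The smallest edgeR p were those of Pprc1 (log2 fold change -0.16 ± 0.08 SE, exact permutation p = 0.0635), a coactivator of the same family as Ppargc1a, and Yy1 (log2 fold change -0.06 ± 0.05 SE, exact permutation p = 0.175), and Ppargc1a itself failed the filter at a highest level of 1.09 FPKM. The log2 fold change was -0.10 for Pprc1 without E4 and -0.03 for Yy1 without NE1. The proliferation list had a median of -0.05 with 0 of 10 at an unadjusted p of at most 0.05, and its smallest edgeR p were those of Top2a (log2 fold change -0.19 ± 0.10 SE, exact permutation p = 0.127) and Bub1 (log2 fold change -0.28 ± 0.17 SE, exact permutation p = 0.190). Of the cytosolic ribosomal genes, 6 of 84 were lower and 0 higher (median -0.11), led by Rpl9 (log2 fold change -0.18 ± 0.07 SE, exact permutation p = 0.0317) and Rpl26 (log2 fold change -0.21 ± 0.08 SE, exact permutation p = 0.0397). NE1 held 6.49% of its counts in this list and the other NE tumors 4.88% to 5.43%, and without NE1 the median was -0.04. Of the nuclear genes of oxidative phosphorylation 2 of 84 were lower and 0 higher (median -0.12), Cox8a (log2 fold change -0.13 ± 0.06 SE, exact permutation p = 0.0238) and Ndufb5 (log2 fold change -0.23 ± 0.10 SE, exact permutation p = 0.00794). Without NE4 the median of that list was -0.0074, and 47 of 84 lay below 0, against 80 with all tumors. Genes of these lists were counted and ordered by the unadjusted p of edgeR, at which 2.29% of all genes were lower and 2.57% higher, and none passed the adjusted threshold.

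The medians of the other lists also moved with single tumors. That of the assembly factors was 0.02 without NE1, so that its direction turned. Without E5 the median was -0.06 for the translation factors, -0.04 for the genes that charge tRNAs and -0.02 for proliferation. It was -0.07 for mitochondrial DNA expression without E1 and -0.03 for the regulators without NE4.

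By the GRCm38 annotation the 78 members lie on 17 chromosomes, with 11 of them on chromosome 11. In 18 members (23.1%) the start lies head to head with that of another protein-coding gene, with 0 to 1000 bases between the starts and no overlap, beside 1491 of 21951 protein-coding genes (6.79%). Partners include Sars2, the mitochondrial seryl-tRNA synthetase, 172 bases from Mrps12, the proteasome gene Psma2, 75 bases from Mrpl32, and Fau, which encodes a cytosolic ribosomal protein, 59 bases from Mrpl49. Mrpl46 and Mrps11 are 2 members that overlap each other head to head by 173 exon bases, and such overlapping pairs were not counted in either share. Sars2 had 2.56 ± 0.271 FPKM in E and 2.51 ± 0.169 in NE, with a log2 fold change of -0.0037 ± 0.10 (SE), beside -0.17 ± 0.12 for Mrps12. Psma2 had a log2 fold change of -0.13 ± 0.06, beside -0.07 ± 0.08 for Mrpl32. That of Fau was -0.10 ± 0.09, beside -0.17 ± 0.08 for Mrpl49. Other partners lay above or below 0. Ppp1r10, 45 bases from Mrps18b, had a log2 fold change of 0.21 ± 0.08, and Helq, 29 bases from Mrps18c, had 0.11 ± 0.13. Whether partners move with their members was not tested.

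Exons of 45 members overlap no other annotated gene, and 3 share over 50% of their exon bases with other genes in sum, namely Mrpl53, Mrps34 (77.8%) and Mrps25 (69.8%, with Nr2c2 on the other strand). Over 10% of the 50-base stretches of 12 members also occur in a transcript of another gene, and 33 members share none. Whether the counting used strand is not given in the sources used here, so the counts of these members are uncertain.

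Promoter windows of 250 bases before to 50 after the start were taken from RefSeq (GRCm38.p6) and gave 75 windows for 69 members, with none for the other 9. The members' windows hold the ETS motif CCGGAAG, on either strand, in 26 of 75 (34.7%), beside 8.86% of all 32851 windows and 11.6% of those of protein-coding genes. The YY1 motif AAGATGGC was in 12 (16%, beside 2.75% of all windows and 3.05% of those of protein-coding genes) and the NRF1 motif GCGCATGC in 8 (10.7%, beside 2.71% and 3.52%). The TATA box TATAAA was in 5 (6.67%, beside 13.6% and 12.6%). The E-box CACGTG was in 7 windows, of which 3 are windows of Mrpl2 that hold the same site. By gene it was in 5 of 69 members (7.25%), beside 8.09% of all genes with a window and 8.91% of protein-coding genes. At least 1 of the ETS, YY1 and NRF1 motifs was in 38 of 75 windows (50.7%), beside 13.3% of all windows and 16.7% of those of protein-coding genes. The median GC content was 58.7%, beside 52.7% over all windows and 56.3% over those of protein-coding genes. The median ratio of CG pairs found to those expected from the C and G content differed more. It was 0.820, beside 0.384 over all windows and 0.567 over those of protein-coding genes. The ETS and NRF1 motifs contain CG, and the part of this ratio in their shares was not tested. A match describes the letters of the window only.

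The promoters of 4 of the 5 members with an unadjusted p of at most 0.05 are shown to set their motifs side by side, and Mrpl15 had no window. They are Mrpl21 at chr19:3282792-3283091 (forward strand), Mrpl35 at chr6:71823735-71824034 (reverse strand), Mrps22 at chr9:98601630-98601929 (reverse strand) and Mrpl1 at chr5:96209865-96210164 (forward strand), all in GRCm38.p6. The starts in RefSeq differ from those in GENCODE for some genes, and the windows of Mrpl35 and Mrpl1 lie inside the GENCODE bounds given above. Capitals mark ETS, NRF1, YY1 and E-box motifs in either orientation. Mrpl21 and Mrps22 hold 1 kind of motif, the ETS motif, Mrpl35 holds the YY1 motif, and Mrpl1 holds none.
Mrpl21: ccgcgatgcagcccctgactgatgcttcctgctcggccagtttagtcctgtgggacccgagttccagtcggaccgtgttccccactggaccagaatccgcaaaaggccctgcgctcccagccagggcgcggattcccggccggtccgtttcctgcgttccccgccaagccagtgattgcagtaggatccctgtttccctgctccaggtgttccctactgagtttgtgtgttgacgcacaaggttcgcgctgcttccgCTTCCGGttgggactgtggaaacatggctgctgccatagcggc
Mrpl35: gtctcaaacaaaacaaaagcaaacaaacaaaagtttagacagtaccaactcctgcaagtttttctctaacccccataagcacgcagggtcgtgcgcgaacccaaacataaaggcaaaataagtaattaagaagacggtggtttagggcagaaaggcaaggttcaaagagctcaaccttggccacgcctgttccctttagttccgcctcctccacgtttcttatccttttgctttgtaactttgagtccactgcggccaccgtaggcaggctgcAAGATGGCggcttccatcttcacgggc
Mrps22: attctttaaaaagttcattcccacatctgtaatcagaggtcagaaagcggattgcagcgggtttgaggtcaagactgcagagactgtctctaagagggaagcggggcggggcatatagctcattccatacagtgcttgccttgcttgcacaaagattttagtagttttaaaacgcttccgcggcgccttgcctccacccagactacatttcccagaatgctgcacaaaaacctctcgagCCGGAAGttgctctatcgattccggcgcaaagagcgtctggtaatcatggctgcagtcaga
Mrpl1: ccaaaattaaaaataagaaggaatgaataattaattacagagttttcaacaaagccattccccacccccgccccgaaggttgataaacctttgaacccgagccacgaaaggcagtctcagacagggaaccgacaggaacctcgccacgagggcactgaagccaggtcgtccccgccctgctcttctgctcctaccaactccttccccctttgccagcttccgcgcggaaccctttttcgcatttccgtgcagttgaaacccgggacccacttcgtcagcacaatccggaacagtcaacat

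The promoters of Mrps12 and of the 3 members named after S18 are shown as examples of the 8 members that hold the ETS motif beside another of these motifs, the others being Mrpl17, Mrpl22, Mrpl33 and Mrps27. They lie at chr7:28741772-28742071 (reverse strand) for Mrps12, chr17:46110754-46111053 (forward strand) for Mrps18a, chr17:35916391-35916690 (reverse strand) for Mrps18b and chr5:100798509-100798808 (forward strand) for Mrps18c, in GRCm38.p6. The ETS motif is in all 4, beside the YY1 motif in Mrps12 and Mrps18a, the NRF1 motif in Mrps18b and the E-box in Mrps18c.
Mrps12: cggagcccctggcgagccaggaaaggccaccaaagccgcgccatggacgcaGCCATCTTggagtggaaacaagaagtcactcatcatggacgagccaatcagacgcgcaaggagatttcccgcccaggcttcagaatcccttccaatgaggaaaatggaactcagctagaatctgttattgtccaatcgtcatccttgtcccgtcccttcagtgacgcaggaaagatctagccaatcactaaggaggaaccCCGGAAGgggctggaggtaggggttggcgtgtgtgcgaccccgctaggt
Mrps18a: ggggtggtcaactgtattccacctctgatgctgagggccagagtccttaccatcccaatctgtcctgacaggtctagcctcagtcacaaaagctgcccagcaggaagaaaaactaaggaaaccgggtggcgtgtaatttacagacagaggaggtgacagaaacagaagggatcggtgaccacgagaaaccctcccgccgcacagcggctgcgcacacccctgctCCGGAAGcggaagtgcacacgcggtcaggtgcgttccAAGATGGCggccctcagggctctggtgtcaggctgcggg
Mrps18b: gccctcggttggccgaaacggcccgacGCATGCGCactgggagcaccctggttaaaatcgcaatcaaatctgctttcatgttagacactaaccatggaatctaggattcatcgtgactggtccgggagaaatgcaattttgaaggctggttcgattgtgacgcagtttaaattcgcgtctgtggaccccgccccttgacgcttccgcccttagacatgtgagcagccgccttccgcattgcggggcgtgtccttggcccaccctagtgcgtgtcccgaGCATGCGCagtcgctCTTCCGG
Mrps18c: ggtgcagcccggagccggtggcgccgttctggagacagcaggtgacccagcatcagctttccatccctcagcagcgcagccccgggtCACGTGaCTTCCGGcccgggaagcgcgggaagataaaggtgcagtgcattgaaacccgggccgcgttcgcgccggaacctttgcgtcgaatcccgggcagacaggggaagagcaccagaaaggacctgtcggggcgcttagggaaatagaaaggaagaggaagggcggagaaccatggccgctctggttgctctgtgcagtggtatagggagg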

How the data were processed

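mRNA of 10 tumors was sequenced from paired-end TruSeq libraries, 5 of E and 5 of NE by the sample labels. The authors' pipeline used Hisat2 for alignment and Stringtie for expression, with a rat assembly named as reference, while the table carries mouse Ensembl identifiers and names no build. The authors deposited 1 table with a whole-number read count, not normalized, and with FPKM, per gene and per tumor. The FPKM follow from count, length and total (largest relative deviation 3.77e-14) and hold no TMM.

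Members were the genes named Mrpl or Mrps. R 4.3.3 was used with edgeR 4.0.16. Counts were scaled by TMM, low genes were removed with filterByExpr, and glmQLFTest was run over 13517 genes, adjusted after Benjamini and Hochberg. A call needed 2-fold or more and an FDR of 0.05 or less. Fold changes are E minus NE. The SE given with them for edgeR is the size of the log2 fold change divided by the square root of the quasi-likelihood F. On simulated counts this test recovered 157 of 200 changed genes (median estimated log2 fold change 1.21 in size) with 7 false calls. Recovery was counted by FDR alone, without the 2-fold limit. It does not tell how often changes as small as those of most members would be found. Alternatives were DESeq2 1.42.0, edgeR's exact test, limma 3.58.1 (voom with sample weights, and trend on log2(FPKM + 1) and log2(FPKM + 0.1)), no TMM, no filter, at least 10 counts in every tumor, a replicate block, a term for the skeletal muscle score or for the log2 total count, an unadjusted p of at most 0.01, and leaving out each tumor. Correlations without NE4 were added after seeing the data. Single members were also compared on log2(CPM + 1) with exact two-sided permutation tests, which were run over all genes after seeing the data (scipy 1.17.1, pandas 2.3.3 and matplotlib 3.10.9 in Python 3.11.15). Members and lists were chosen with earlier results of these data known.

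Named members were the 10 of smallest p, the 5 highest and 5 lowest by mean FPKM, the 3 of largest and the 3 of smallest SD, 15 by role, and any that failed the filter. Of each list (other ribosomal proteins, assembly, translation factors, tRNA charging, mitochondrial DNA expression, mitochondrial messages, regulators, proliferation, cytosolic ribosome, oxidative phosphorylation, and markers of muscle, epithelium, leukocytes, fibroblasts, endothelium and fat) the 2 genes of smallest p were named, and for markers also the most abundant gene and those at 0. Cdh1, Mrps14 (for its exact p) and the members and neighbours named only for their position, overlap or motifs (Mrpl17, Mrpl32, Mrpl46, Mrps11, Mrps34, Sars2, Psma2, Fau, Ppp1r10, Helq, Nr2c2 and Gm42688) were named after values were seen. Positions are from GENCODE M21 on GRCm38 and promoters from RefSeq. No libraries were alike within counting error (smallest chi-square per degree of freedom 7.51). Tumor sizes and the other experiments of the study were not analysed here.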

Additional observations from a re-analysis of the deposited data

Results flagged for a closer look

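Of 108 groups of 5 tumors, 11 held 1 tumor that stood apart from the other 4 by Dixon's ratio. For independent, normally distributed values the limit would be passed in about 1 in 20 groups, or 5.4. The groups share the same tumors and some list shares are far from a normal distribution, so the 11 cannot be read against this rate. Among the members, Mrpl2 had 51.6 FPKM in NE1, with 39.8 to 41.7 in the other NE tumors, and Mrpl22 had 25.3 FPKM in E3, with 30.3 to 31.4 in the other E tumors.

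The other 9 were summed shares of lists. The genes that charge mitochondrial tRNAs had 0.0629% in NE1, with 0.0570% to 0.0579% in the other NE tumors. In NE4, the genes of mitochondrial DNA expression had 0.0583% (others 0.0649% to 0.0669%), and the nuclear genes of oxidative phosphorylation had 0.984% (others 0.751% to 0.779%). Muscle markers had 2.48% in NE4 (others 0.00125% to 0.167%) and 0.402% in E2 (others 0.0328% to 0.134%). Adipocyte markers had 0.00799% in NE4 (others 0.000857% to 0.00195%), and epithelial markers had 0.0129% in NE5 (others 0.00251% to 0.00309%). In E5, fibroblast markers had 1.58% (others 0.218% to 0.511%) and endothelial markers had 0.0215% (others 0.0120% to 0.0139%).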

How the results depend on the processing

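No gene was called in any of the 21 alternative settings, and the results that moved were counts at an unadjusted p, the median, and the direction of some members. The count of members lower in E, 5 with edgeR, was 0 by edgeR's exact test, 3 without TMM, 9 by limma-voom, 0 with the total count in the model and 0 at an unadjusted p of at most 0.01. The share of all genes lower in E moved as well, from 2.29% to 1.07%, 1.18%, 8.21%, 0.429% and 0.259% in these settings. The median log2 fold change was 0.00042 with the total count in the model. Leaving out 1 tumor gave 2 (without E2 or E5) to 9 (without E3) members lower in E, 0 to 1 higher (1 without NE1), and medians of -0.08 to -0.03. Of all genes, 1.38% were lower without E2, 1.22% without E5 and 3.16% without E3, and 5.82% were higher and 4.09% lower without NE1. Total count and group move together here, and the cause of these shifts was not tested.

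Of the 36 tested members named by the rules above, 21 kept their direction in every setting, and 14 reversed outside the left-out tumors. Not all of the 14 were close to 0, since Mrps7 had a log2 fold change of -0.06 in the main fit. Mrps14 and the members named only for their position, overlap or motifs were not part of this tally. Without TMM the log2 fold change was 0.0065 for Mrpl10, 0.032 for Mrpl12, 0.0077 for Mrpl23, 0.030 for Mrpl48, 0.016 for Mrps21 and 0.021 for Mrps23. By limma on log2(FPKM + 0.1) it was 0.0093 for Mrpl10, 0.034 for Mrpl12, 0.016 for Mrpl23, 0.047 for Mrpl48, 0.015 for Mrps21 and 0.020 for Mrps23, and on log2(FPKM + 1) 0.0089 for Mrpl10, 0.033 for Mrpl12, 0.012 for Mrpl23, 0.035 for Mrpl48, 0.015 for Mrps21 and 0.019 for Mrps23. By limma-voom it was 0.063 for Mrpl10, 0.054 for Mrpl12, 0.031 for Mrpl23, 0.097 for Mrpl48, 0.030 for Mrps21, 0.034 for Mrps23, -0.012 for Mrps31 and 0.042 for Mrps7. With the total count in the model it was 0.045 for Mrpl10, 0.0072 for Mrpl11, 0.069 for Mrpl12, 0.011 for Mrpl2, 0.11 for Mrpl23, 0.0019 for Mrpl3, 0.039 for Mrpl48, 0.12 for Mrps18c, 0.070 for Mrps21, 0.051 for Mrps23, -0.023 for Mrps31 and 0.019 for Mrps7. With at least 10 counts in every tumor it was -4.8e-05 for Mrpl44 and -0.0017 for Mrps18b.

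With the tumor number as a replicate block the log2 fold change was 0.0020 for Mrpl12 and 0.017 for Mrpl48. The study speaks of matched pairs, but the labels name nothing that tumors of the same number share, and they were treated as sharing a number only. Deviations of the same number correlated at 0.0355, -0.156, -0.0950, -0.325 and 0.316 for numbers 1 to 5, and 1 of 5 tumors was most like the one of its own number. The block changed no call.

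Over the left-out tumors the log2 fold change ran from -0.064 to 0.052 for Mrpl10, -0.056 to 0.087 for Mrpl12, -0.066 to 0.024 for Mrpl2, -0.11 to 0.056 for Mrpl23, -0.0028 to 0.088 for Mrpl33, -0.025 to 0.051 for Mrpl44, -0.061 to 0.12 for Mrpl48, -0.030 to 0.045 for Mrps18b, -0.14 to 0.034 for Mrps18c, -0.064 to 0.044 for Mrps21, -0.046 to 0.023 for Mrps23, -0.021 to 0.031 for Mrps31 and -0.10 to 0.023 for Mrps7. The correlations without NE4 were an alternative chosen after the values of NE4 were seen. The fold changes and medians of the lists without single tumors were also added after seeing the data.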
